A study of Mus musculus with 37 samples.

Results

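The imprinted growth genes described here are H19, Igf2, Meg3, Dlk1, Peg3, Plagl1, Cdkn1c, Mest, Grb10 and Zim1, taken as every probe set annotated to any of these 10 genes. They gave 30 probe sets of 45101 on the array, and 17 of the 30, from 8 of the 10 genes, were bright enough to be tested. The study asked what added Cdca7l does to cultured mouse astrocytes, the star-shaped glia of the brain, and it did so in both sexes of 2 strains. Astrocytes were grown from newborn mice in medium with 20% serum and given 5 µg of a pcDNA3.1-hygro plasmid by nucleofection, and stable transfectants were profiled from 10 ng of RNA on 37 arrays. The 129S4/SvJae (129) astrocytes were 5 male cultures with Cdca7l and 5 male cultures with the empty vector, and 4 female cultures with Cdca7l and 4 with the vector. The C57BL/6J (B6) astrocytes were 5 male cultures with Cdca7l and 5 with the vector, and 4 female cultures with Cdca7l and 5 with the vector. All 37 cultures therefore went through nucleofection and carried a hygromycin-resistance plasmid, and no untransfected culture was analysed here. Each culture has a clone label such as 3(1), and 15 of the 22 labels within a strain and sex stand on an array of each plasmid. In pcDNA3.1 plasmids a cytomegalovirus promoter, which is not specific to a cell type, drives the insert. The labels do not say what the clone numbers stand for or how many animals gave a culture.

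Imprinted genes are expressed mainly from the copy inherited from 1 parent, according to methylation marks laid down in the egg or sperm. Many of them act on growth before and around birth: paternally expressed members such as Igf2, Dlk1, Peg3 and Mest tend to promote it, and maternally expressed members such as H19, Grb10 and Cdkn1c tend to hold it back. In the brain, Dlk1 and Igf2 are known as niche signals for neural stem cells, and Plagl1 (also called Zac1) is a zinc finger factor that acts on several other imprinted genes. Several members lie in shared domains: H19 is next to Igf2, Dlk1 next to Meg3, and Peg3 next to Zim1, with no other protein-coding gene start between them in the RefSeq annotation.

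A few sequences belong with the values that follow. The single H19 probe set is annotated to H19 and to Mir675, a microRNA whose hairpin lies inside the H19 transcript, so its signal can come from the host RNA, and the array gives no separate reading of the mature microRNA. The 2 mature arms, from RefSeq on GRCm38.p6 and with the seed (bases 2 to 8) in capitals, lie on the minus strand at chr7:142577112-142577133 and chr7:142577078-142577099.
mmu-miR-675-5p: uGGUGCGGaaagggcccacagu
mmu-miR-675-3p: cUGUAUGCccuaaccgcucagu
The seeds differ, so the arms fall into different seed groups.

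For promoters, 8 of the 10 members matched RefSeq windows on GRCm38.p6, the others being H19 and Cdkn1c. Dlk1 and Mest are shown because their levels ran in opposite directions across cultures (given further on). The 250 bases before the start are printed with the CpG dinucleotides, the sites that DNA methylation acts on, in capitals. The Dlk1 window, chr12:109452573-109452822 on the plus strand, holds 8 CpGs, and the Mest window, chr6:30737800-30738049 on the plus strand, holds 14, where the median over all 32851 windows is 6. The Mest window printed is 1 of 3 for this gene, and another of them holds 7 CpGs.
Dlk1: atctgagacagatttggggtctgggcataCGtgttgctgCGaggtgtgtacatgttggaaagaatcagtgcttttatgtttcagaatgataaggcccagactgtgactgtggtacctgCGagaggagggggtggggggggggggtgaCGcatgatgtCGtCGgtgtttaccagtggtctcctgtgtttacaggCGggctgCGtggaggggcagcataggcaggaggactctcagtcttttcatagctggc
Mest: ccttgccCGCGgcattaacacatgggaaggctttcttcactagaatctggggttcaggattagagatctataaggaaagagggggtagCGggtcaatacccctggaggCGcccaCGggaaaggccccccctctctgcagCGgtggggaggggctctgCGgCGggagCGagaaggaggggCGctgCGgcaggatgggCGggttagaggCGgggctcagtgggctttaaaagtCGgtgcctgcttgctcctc
The Peg3 window, chr7:6730420-6730669 on the minus strand, is shown because Plagl1 and Peg3 are both members and it was the only gene among the 8 whose windows held the palindrome GGGGCCCC, the consensus reported for Plagl1. Searched on both strands over 300 bases from 250 before the start, GGGGCCCC stood in 1 of 15 member windows and in 1.08% of all windows. The cAMP response element TGACGTCA, which does not overlap it, stood in the Peg3 window and in 1 Meg3 window, and in 1.79% of all windows. Capitals mark both motifs.
Peg3: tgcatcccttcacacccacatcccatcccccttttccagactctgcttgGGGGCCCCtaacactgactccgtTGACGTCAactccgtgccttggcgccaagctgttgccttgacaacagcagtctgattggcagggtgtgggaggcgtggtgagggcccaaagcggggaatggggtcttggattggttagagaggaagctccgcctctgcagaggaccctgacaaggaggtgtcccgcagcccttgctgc
These letters are a description of the sequence, and binding and methylation were not measured.

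Values are log2 GCRMA intensities, in which 1 unit is a doubling, and 3.19, the median of the whole value table, serves as the background. Testing was limited to probe sets above it on 4 arrays or more. The array's probe sets differ in brightness, so levels are compared between samples and never between genes. The transfected gene was checked first: Cdca7l read 10.15 to 14.42 on the Cdca7l arrays and 4.12 to 10.43 on the vector arrays. Within each strain and sex, the Cdca7l arrays were all above the vector arrays. As for sex, the array labelled B6 female vector 5.1(1) did not match its label at Xist and Eif2s3y. The array 129 female vector 1(3) stood apart by its upper quartile, 8.36 against 9.03 to 9.51 on the other 36 arrays. Values without these 2 arrays stand beside the main tests below. Astrocyte markers were high on every array, with a mean log2 level over 11 genes of 10.77 to 12.33 in 129 males, 8.98 to 12.48 in 129 females, 11.10 to 12.66 in B6 males and 10.90 to 12.53 in B6 females.

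The members split into 3 kinds. Cdkn1c, an inhibitor of cyclin-dependent kinases, and Zim1, a zinc finger gene beside Peg3, read at or below background on all 37 arrays, with highest values of 2.06 and 2.53. Meg3, Peg3, Plagl1, Mest and Grb10 read well above background on all 37 arrays at their brightest probe set. H19, Dlk1 and Igf2 were present in some cultures and at background in others: H19 was above background on 32 arrays, Dlk1 on 30 and Igf2 on 5. The spread of these 3 within groups was large, with a residual SD of 1.97 for H19, 2.24 for Dlk1 and 2.26 for Igf2, which placed them at the 97.8, 99.0 and 99.0 percentiles of the 25579 tested probe sets.

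**Figure D1:**
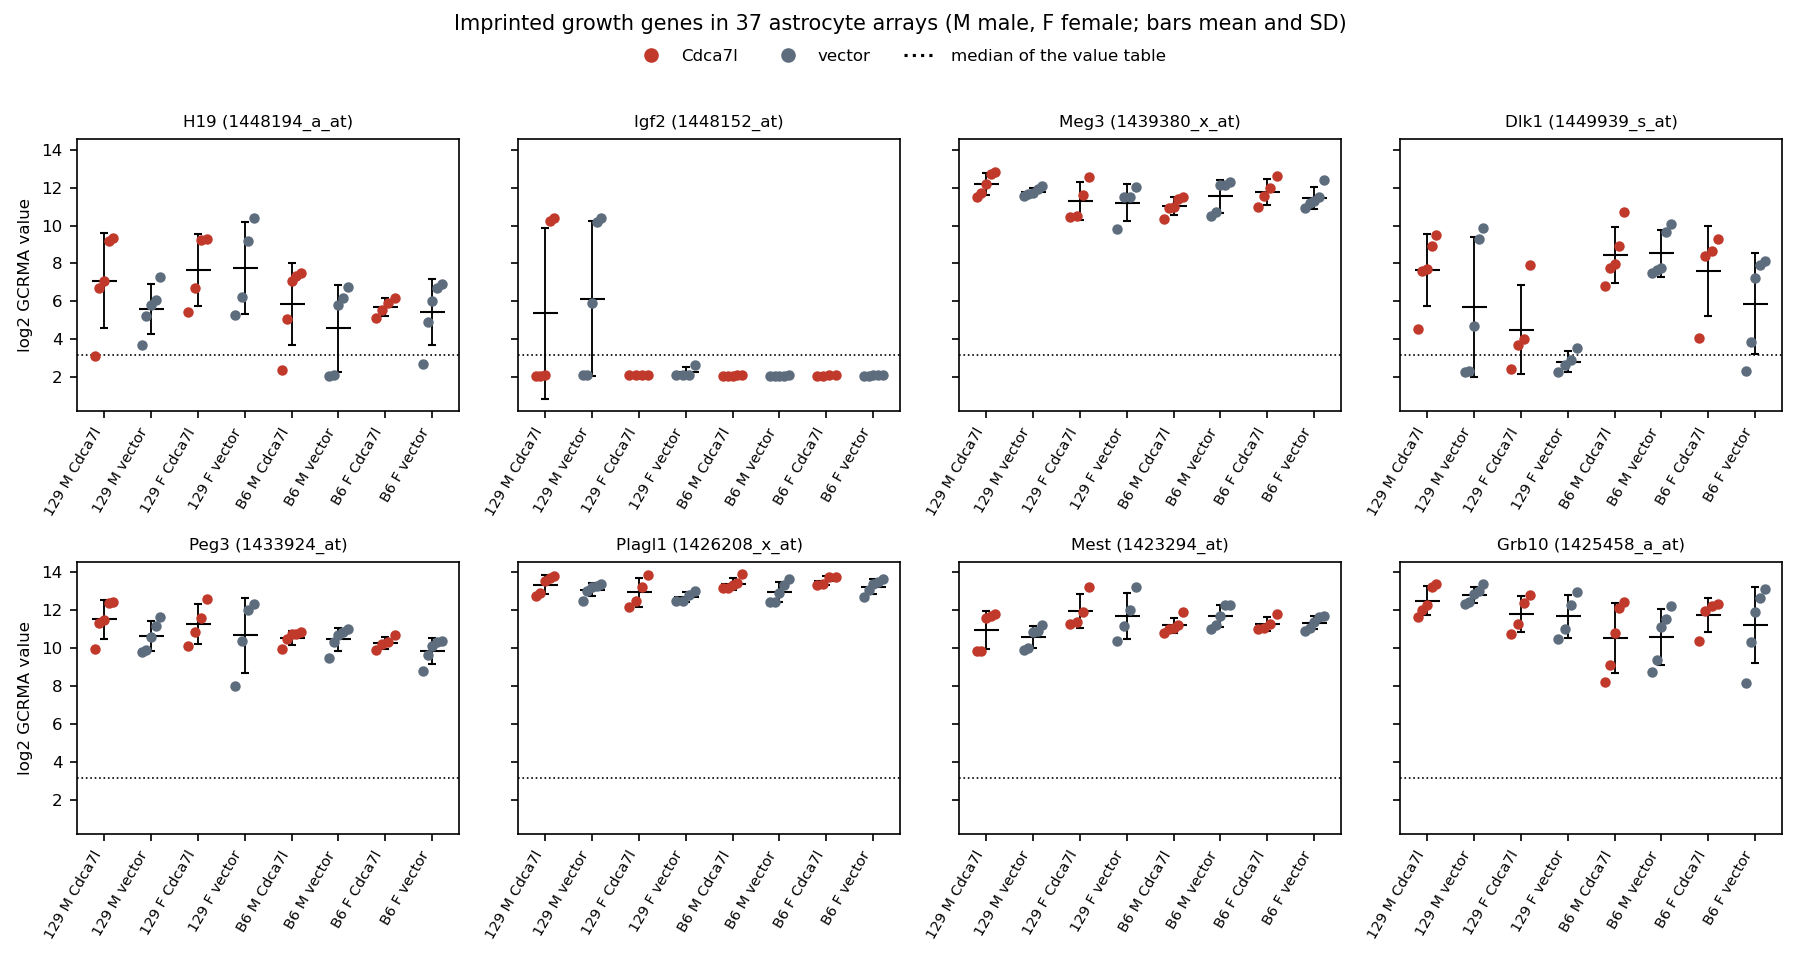
Log2 GCRMA values (vertical axis) of the brightest probe set of the 8 measured members in the 8 groups (horizontal axis), with 1 point per array, the group mean and its SD as bars, and a dotted line at the background of 3.19. Igf2 stands above the line on 5 arrays, all from 129 males, whereas Meg3, Peg3, Plagl1, Mest and Grb10 stand above it on all 37.

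Igf2 encodes the growth factor whose signal passes through the type 1 IGF receptor. In 129 males with Cdca7l, Igf2 read 10.39 in culture 3(1) and 10.24 in culture 5(1), and 2.07, 2.07 and 2.10 in the other 3 cultures. In 129 males with the vector it read 10.20 in culture 3(1), 10.37 in culture 5(1) and 5.94 in culture 5(2), and 2.10 and 2.12 in the other 2 cultures. The same 2 clone labels were thus high with both plasmids. In 129 females, B6 males and B6 females all Igf2 values lay between 2.06 and 2.68, below background. The second Igf2 probe set, 1415931_at, stayed at or below 3.13 on all 37 arrays.

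The arrays with Igf2 also differed at other cell type markers. The mean log2 level of the 13 tested fibroblast and meningeal markers was 11.06 and 10.99 in 129 male Cdca7l cultures 3(1) and 5(1), and 7.28 to 7.78 in the other 3 Cdca7l cultures. It was 11.09, 11.13 and 8.44 in vector cultures 3(1), 5(1) and 5(2), and 6.92 and 7.58 in the other 2 vector cultures. The 2 tested endothelial markers, Flt1 and Kdr, had mean log2 levels of 6.35 and 8.02 in Cdca7l cultures 3(1) and 5(1) and of 5.92, 5.84 and 4.24 in vector cultures 3(1), 5(1) and 5(2), with 2.42 to 2.84 in the other 5 cultures of 129 males. Their defining endothelial partners Pecam1, Cdh5 and Cldn5 were not bright enough to be tested. Astrocyte markers in those 5 cultures were at 10.95 to 12.06, inside the range of the other cultures. The culture 129 female vector 2(3), with Igf2 at 2.68, had a fibroblast and meningeal level of 8.59, above that of vector culture 5(2). The endothelial level was 4.29 in 129 female Cdca7l culture 4(1) and 4.67 in 129 female vector culture 4(1). Both were above that of vector culture 5(2), while Igf2 read 2.11 and 2.12 there, below background. The part of other cell types in the Igf2 signal was not tested.

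**Figure D2:**
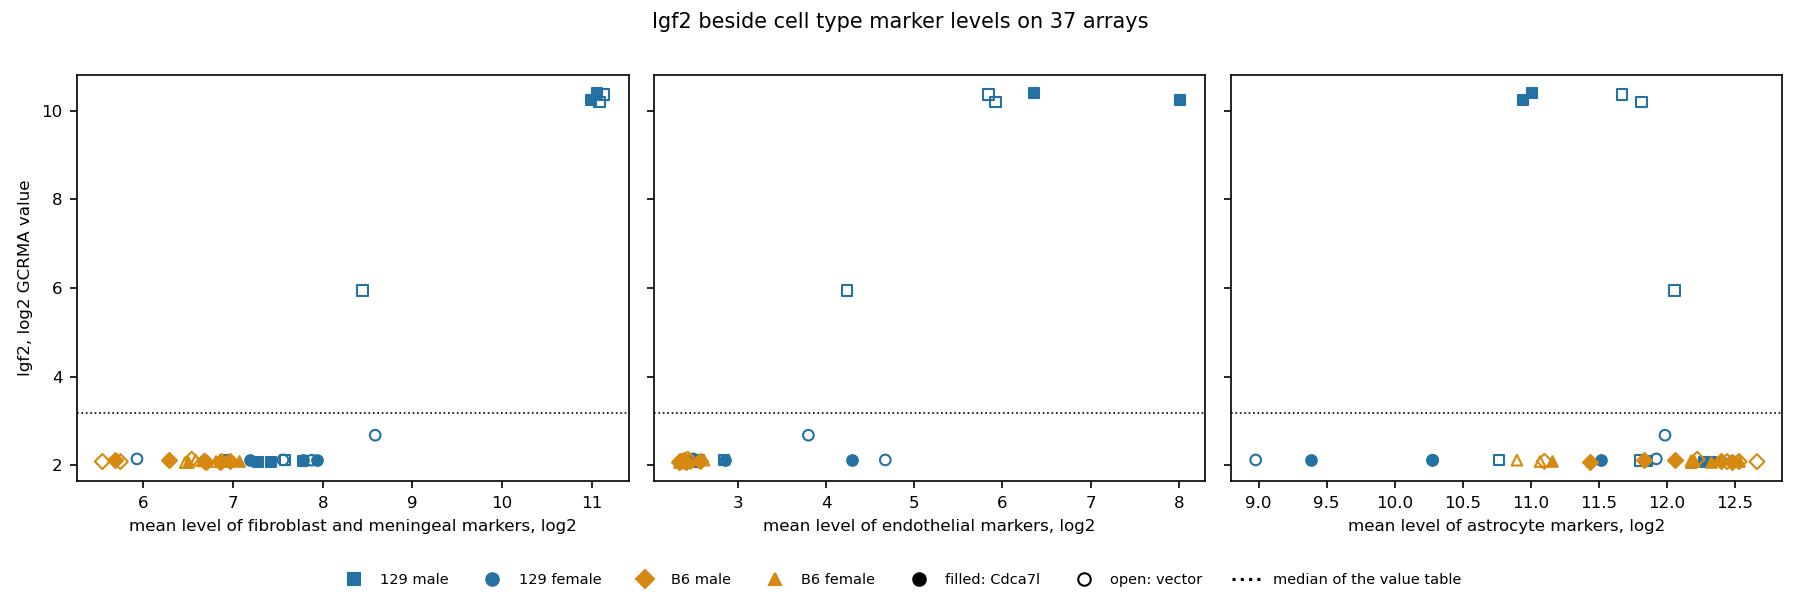
Igf2 (vertical axis, log2) against the mean log2 level of fibroblast and meningeal, endothelial and astrocyte markers (horizontal axes) on 37 arrays, filled symbols for Cdca7l and open symbols for vector, with a dotted line at background. The 4 arrays with Igf2 above 10 have fibroblast and meningeal levels of 10.99 to 11.13 and astrocyte levels of 10.95 to 11.82.

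Over all 37 arrays and after removal of the group means, the transcripts most like Igf2 were Saa1, an acute-phase protein (Pearson r 0.996), Pax3, a transcription factor of the dorsal neural tube and neural crest (0.986), and Tfpi, an inhibitor of blood clotting (0.981). Saa1 and Pax3 were above background on 5 arrays each, the same 5 as Igf2, and Tfpi on 8, which included these 5. In vector culture 5(2), where Igf2 was at 5.94, Saa1 read 6.39, Pax3 4.17 and Tfpi 4.06. These coefficients rest on the 5 arrays and were the highest among all tested probe sets, so they are a description.

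H19 is a non-coding RNA expressed from the maternal copy beside Igf2. In 129 males it read 9.20, 7.07, 9.37, 6.73 and 3.15 with Cdca7l and 7.28, 6.08, 5.21, 5.82 and 3.69 with the vector. In 129 females it read 9.29, 5.44, 9.21 and 6.69 with Cdca7l and 10.37, 9.20, 5.26 and 6.21 with the vector. In B6 males it read 7.48, 7.08, 2.41, 5.07 and 7.33 with Cdca7l and 6.76, 5.81, 2.07, 2.12 and 6.17 with the vector. In B6 females it read 5.56, 5.11, 6.20 and 5.93 with Cdca7l and 6.03, 4.89, 6.70, 2.71 and 6.90 with the vector. The plasmids overlapped in every strain and sex, and values above 9 were seen in 129 cultures only. In the 129 male cultures with Igf2 above 10, H19 was at 5.21 to 7.07, which lay inside the range of the other 129 male cultures (3.15 to 9.37).

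Dlk1 encodes a transmembrane relative of the Notch ligands. In 129 males it read 7.72, 9.49, 7.59, 8.92 and 4.56 with Cdca7l and 2.28, 9.85, 9.30, 4.71 and 2.36 with the vector. In 129 females it read 4.02, 3.71, 2.43 and 7.91 with Cdca7l and 2.27, 2.63, 3.54 and 2.90 with the vector. In B6 males it read 8.94, 10.72, 7.77, 6.81 and 7.95 with Cdca7l and 10.10, 9.66, 7.50, 7.66 and 7.77 with the vector. In B6 females it read 4.09, 8.38, 8.65 and 9.31 with Cdca7l and 3.84, 7.94, 8.13, 7.22 and 2.32 with the vector. The plasmids overlapped in every strain and sex, whereas all B6 males read higher than all 129 females with the vector. By group mean, B6 males with the vector (8.54 ± 1.24, SD, n = 5) and with Cdca7l (8.44 ± 1.48, n = 5) stood highest, and 129 females with the vector stood lowest (2.83 ± 0.53, n = 4). Between them lay, in falling order, 129 males with Cdca7l (7.66 ± 1.91), B6 females with Cdca7l (7.61 ± 2.38), B6 females with the vector (5.89 ± 2.64), 129 males with the vector (5.70 ± 3.67) and 129 females with Cdca7l (4.52 ± 2.36). Neighbours in this order differed by less than the larger of their SDs.

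Meg3, the maternally expressed non-coding RNA next to Dlk1, was the most widely covered member, with 11 probe sets of which 7 were tested. The 5 bright ones were above background on all 37 arrays and moved together within groups, with Pearson r of 0.72 to 0.97 over 37 arrays, so they share a target and are not independent results. The brightest, 1439380_x_at, ran from 11.48 to 12.79 (median 12.20) in 129 males with Cdca7l, against 11.54 to 12.06 (median 11.73) with the vector. In B6 males it ran from 10.34 to 11.51 (median 10.98) with Cdca7l, against 10.49 to 12.27 (median 12.12) with the vector. In females it ran from 10.44 to 12.54 with Cdca7l and from 9.80 to 12.02 with the vector in 129, and from 10.99 to 12.58 with Cdca7l and from 10.91 to 12.39 with the vector in B6. Within each strain and sex the plasmids overlapped. Over all arrays Dlk1 ran from 2.27 to 10.72 and Meg3 from 9.80 to 12.79, and a correlation of their deviations across labels did not pass (Pearson r -0.08, permutation p = 0.704, n = 22 labels).

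Peg3 encodes a zinc finger protein. At its brightest probe set, 1433924_at, it read 9.96 to 12.45 in 129 males with Cdca7l and 9.81 to 11.65 with the vector, and 10.10 to 12.58 in 129 females with Cdca7l and 8.01 to 12.31 with the vector. In B6 it read 9.95 to 10.87 in males with Cdca7l and 9.50 to 11.00 with the vector, and 9.93 to 10.69 in females with Cdca7l and 8.78 to 10.40 with the vector. The B6 cultures kept to a narrower range, and no B6 value passed 11.00.

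Plagl1 was bright and even at 1426208_x_at, from 12.17 to 13.90 over all arrays, and wider at its dimmer probe sets. Probe set 1438588_at ran from 5.96 to 11.95 and 1450533_a_at, the dimmest, from 3.90 to 8.51. At 1450533_a_at Plagl1 read 8.11, 5.78, 7.66, 6.39 and 7.46 in 129 males with Cdca7l and 4.91, 6.48, 6.75, 7.78 and 7.47 with the vector. In 129 females it read 5.70, 7.14, 5.75 and 8.49 with Cdca7l and 5.44, 5.72, 3.90 and 7.10 with the vector. The plasmids overlapped in both sexes, and the lowest value of all was the doubted array 129 female vector 1(3). In B6 males Plagl1 read 8.32, 7.15, 7.58, 7.19 and 8.51 with Cdca7l and 6.87, 8.06, 5.52, 5.04 and 7.24 with the vector. In B6 females it read 7.60, 7.30, 8.23 and 8.33 with Cdca7l and 7.17, 7.15, 8.15, 7.10 and 6.99 with the vector. The plasmids overlapped in B6 as well.

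Mest encodes a member of the alpha/beta hydrolase fold family. In 129 males it read 11.78, 9.86, 11.72, 9.84 and 11.58 with Cdca7l and 10.83, 10.03, 9.90, 10.91 and 11.23 with the vector. In 129 females it read 13.21, 11.29, 11.93 and 11.39 with Cdca7l and 13.22, 11.99, 10.37 and 11.18 with the vector. Its 4 lowest values on the 37 arrays, 9.84, 9.86, 9.90 and 10.03, were in the 4 cultures with Igf2 above 10, and its 2 highest were the cultures of label 129 female 4(1). In B6 it stayed between 10.81 and 12.28.

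Grb10 encodes an adaptor that binds the insulin and IGF1 receptors and dampens their signal. In 129 males it read 12.28, 13.24, 11.67, 13.36 and 11.99 with Cdca7l and 13.39, 13.03, 12.85, 12.33 and 12.41 with the vector. In 129 females it read 12.37, 11.30, 12.79 and 10.75 with Cdca7l and 12.28, 12.95, 10.50 and 11.00 with the vector. The 129 cultures were thus all at 10.50 or above. In B6 males it read 12.12, 12.43, 9.12, 8.21 and 10.80 with Cdca7l and 12.23, 11.53, 8.75, 9.39 and 11.14 with the vector. In B6 females it read 12.33, 10.39, 12.24 and 11.98 with Cdca7l and 12.62, 10.33, 11.91, 8.15 and 13.11 with the vector. Most B6 cultures overlapped with 129, and the 5 lowest values, 8.15 to 9.39, were all in B6, with 8.15 on the array labelled B6 female vector 5.1(1).

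The first comparison asked what Cdca7l does to the members. With limma over all 25579 tested probe sets and p-values adjusted by the Benjamini-Hochberg method, no member differed between Cdca7l and vector averaged over strains and sexes: 0 of 17 member probe sets were past an adjusted p of 0.05, where 0.00782% of all tested probe sets were. At an unadjusted p under 0.05 there were 2 of 17, both from Plagl1, where 1.27% of all were. Plagl1 1450533_a_at differed by 0.85 ± 0.32 (log2 difference and standard error, Cdca7l minus vector; adjusted p = 0.999 with limma) and 1426208_x_at by 0.31 ± 0.15 (adjusted p = 0.999 with limma). Of the 15 clone labels with both plasmids, 12 read higher with Cdca7l at 1450533_a_at, by 4.59 at most, and 10 at 1426208_x_at. The pair 4.59 apart was 129 female 1(3), whose vector array is one of the doubted arrays. At the third tested Plagl1 probe set, 1438588_at, 5 of 15 labels read higher with Cdca7l, and the averaged difference was 0.31 ± 0.45 (adjusted p = 0.999 with limma), so the Plagl1 probe sets did not all run one way within labels. Without both doubted arrays the differences were 0.70 at 1450533_a_at and 0.31 at 1426208_x_at (adjusted p = 0.934 for each with limma).

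Dlk1 had the largest member difference, 1.31 log2 units (95% interval -0.15 to 2.78, adjusted p = 0.999 with limma), and 11 of 15 labels read higher with Cdca7l. In labels 129 male 3(3) and 129 female 1(3), Dlk1 read 7.72 and 7.91 with Cdca7l, against 2.28 and 3.54 with the vector. The vector array of 129 female 1(3) is again the doubted one, and without both doubted arrays the Dlk1 difference was 1.46 (adjusted p = 0.934 with limma). In the other 13 labels the plasmids differed by 2.21 at most. H19 differed by 0.73 (interval -0.56 to 2.02), Peg3 1433924_at by 0.51 (-0.11 to 1.12), Mest by 0.02 (-0.45 to 0.50) and Grb10 by 0.07 (-0.80 to 0.93). Of the 17 member probe sets 15 were above 0, with a median of 0.16, beside a median of 0.02 and 55.2% above 0 over all tested probe sets. Several of the 17 read the same gene and are not independent. With 1 probe set per gene, 7 of 8 genes were above 0, with a median of 0.19, and no test was made of these counts. Microglia and macrophage markers moved with the same comparison: 0 of 9 tested were above 0, with a median of -0.96, none past the threshold. Their mean log2 level ran from 3.11 to 5.57 in 129 males with Cdca7l and from 3.62 to 10.14 with the vector, from 2.82 to 5.85 in 129 females with Cdca7l and from 3.09 to 6.01 with the vector, from 3.19 to 6.25 in B6 males with Cdca7l and from 2.95 to 4.05 with the vector, and from 2.90 to 3.64 in B6 females with Cdca7l and from 2.81 to 9.00 with the vector. Within B6 males the microglia and macrophage markers ran the other way, with 9 of 9 above 0 and a median of 1.09. Ependymal and choroid plexus markers were above 0 at 6 of 7 (median 0.38) and astrocyte markers at 10 of 11 (median 0.13) in the averaged comparison, none past the threshold. The part of these cell types in the member values was not tested.

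**Figure D3:**
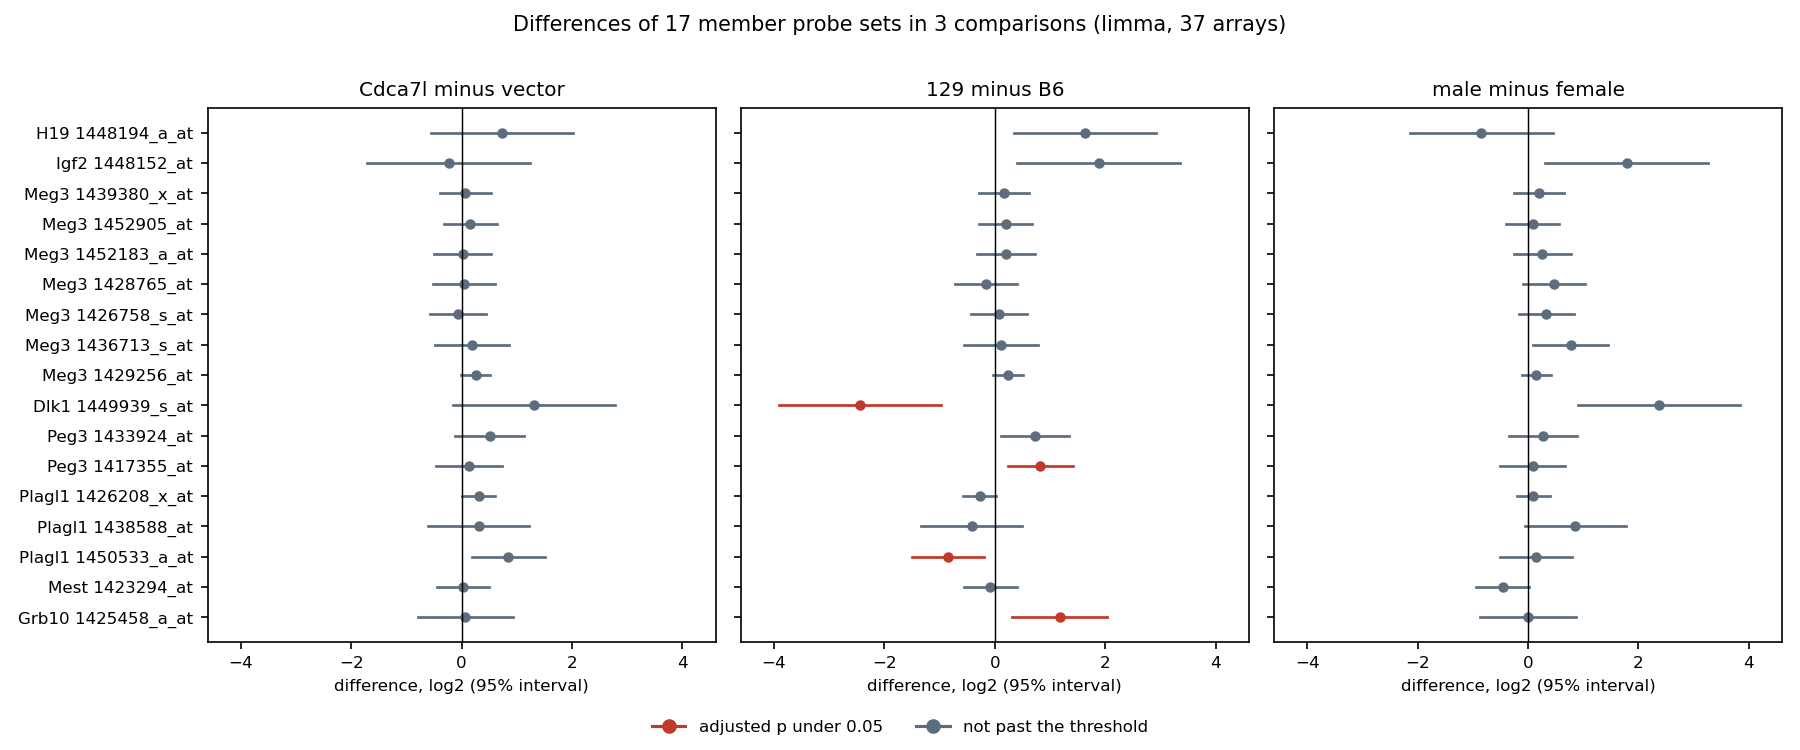
Log2 differences of the 17 tested member probe sets (rows) with 95% intervals, for Cdca7l minus vector, 129 minus B6 and male minus female, from 1 limma fit over 37 arrays, in red where the adjusted p is under 0.05. The 4 red rows, Dlk1, Peg3 1417355_at, Plagl1 1450533_a_at and Grb10, are all in the strain panel. Igf2 was below background on all B6 and all female arrays, so its strain and sex rows are not read as sizes.

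Within single groups no member passed either. In B6 males 5 of 17 member probe sets were above 0 (median -0.19), against 15 in 129 males, 11 in 129 females and 15 in B6 females. Several of the 17 read the same RNA, Meg3 above all. With 1 probe set per gene, 3 of 8 genes were above 0 in B6 males, against 6 of 8 in each other strain and sex. The median over all tested probe sets was -0.02 in B6 males, -0.02 in 129 males, 0.07 in 129 females and 0.03 in B6 females. No test was made of these counts. Counts of member probe sets past the threshold were 0 of 17 in 129 males, 129 females, B6 males and B6 females, and 0 of 17 for the interactions of Cdca7l with sex and with strain, where 0% of all tested probe sets passed in each. At an unadjusted p under 0.05 there were 2 members in 129 males, beside 1.65% of all: Peg3 1417355_at (1.19, adjusted p = 1 with limma) and Meg3 1429256_at, which was above background on 3 of the 5 Cdca7l arrays and on none of the vector arrays, so no size is given. In 129 males Peg3 1417355_at read 4.11, 6.87, 3.80, 6.14 and 3.35 with Cdca7l, against 3.69, 3.92, 4.07, 3.20 and 3.43 with the vector. The groups overlapped, and the highest values were cultures 3(1) and 5(1), those with Igf2. In an exact two-sided permutation test of each member probe set in each strain and sex, 1 of 68 had p under 0.05, Meg3 1429256_at in 129 males (exact p = 0.0159), and none after adjustment over the 68 (smallest adjusted p = 0.732). The smallest p such a test allows is 0.00794 with 5 cultures in a group and 0.0286 for the 4 against 4 of 129 females. Plagl1 1450533_a_at was higher with Cdca7l by 0.40 in 129 males, 1.23 in 129 females, 1.20 in B6 males and 0.55 in B6 females, with exact p of 0.587, 0.171, 0.103 and 0.127. At Plagl1 1438588_at the differences were 0.83 in 129 males, 0.81 in 129 females, -0.50 in B6 males and 0.10 in B6 females, with exact p of 0.302, 0.657, 0.151 and 0.984.

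Between strains, 4 of 17 member probe sets were past the threshold (23.5%), where 25.2% of all tested probe sets were (10.6% higher in 129 and 14.6% lower, against 2 and 2 members), so the members' share was near the background. Dlk1 was lower in 129 than in B6 by 5.43-fold (log2 difference -2.44 ± 0.72, adjusted p = 0.0133 with limma). Over the strains, Dlk1 averaged 5.34 ± 2.89 in 129 (SD, n = 18) and 7.62 ± 2.14 in B6 (SD, n = 19), and it was above background in 12 of 18 cultures of 129 and in 18 of 19 of B6. Plagl1 1450533_a_at, the dimmest of its tested probe sets, was also lower in 129 (-0.85 ± 0.32, adjusted p = 0.0488 with limma), while its brighter probe set 1426208_x_at did not pass (-0.27, adjusted p = 0.173 with limma). The remaining one, 1438588_at, did not pass either, at 9.37 ± 1.88 in 129 (SD, n = 18) and 9.70 ± 0.79 in B6 (SD, n = 19). Grb10 was higher in 129 (1.17 ± 0.42, adjusted p = 0.0408 with limma), at 12.25 ± 0.89 in 129 and 10.99 ± 1.59 in B6. Peg3 1417355_at was higher in 129 (0.82 ± 0.29, adjusted p = 0.0364 with limma), and the brighter 1433924_at ran the same way short of the threshold (0.73, adjusted p = 0.0743 with limma). The called 1417355_at lay near the background of 3.19, so its 0.82 is not read as a size. Its median was 3.75 in 129, with 15 of 18 arrays above background, and 3.27 in B6, with 14 of 19. H19 (1.63, adjusted p = 0.056 with limma) and Igf2 (adjusted p = 0.0546 with limma) missed it. For Igf2 no size is given, since all 19 B6 arrays were below background. Meg3 and Mest differed by 0.24 at most.

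These strain calls were not equally firm. The Dlk1 call held with each of the 37 arrays left out in turn (adjusted p of 0.00459 to 0.0272) and under 10 of 10 other settings (differences of -3.35 to -2.24). The call of Peg3 1417355_at was lost without 7 arrays, that of Grb10 without 17 and that of Plagl1 1450533_a_at without 23, each left out singly. When cultures that share a label were tied together by a random replicate block (correlation 0.41), 1 of 17 member probe sets passed in place of 4, namely Dlk1 (adjusted p = 0.0283). Without the array labelled B6 female vector 5.1(1) there were 2, and without both doubted arrays 5.

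Cell type markers moved with strain too, on an array where 25.2% of all tested probe sets were called. Of 13 tested fibroblast and meningeal markers 8 were higher in 129 and 1 lower, with a median log2 difference of 1.41; collagen genes led, with Col3a1 at 5.43, Col1a1 at 3.02 and Col1a2 at 2.75. The mean level of that list ran from 5.93 to 11.13 in 129 (median 7.78) and from 5.54 to 7.07 in B6 (median 6.67). Of 11 astrocyte markers 5 were lower in 129 and none higher (median -0.76), among them the glutamate transporter Slc1a3 (-0.96) and the water channel Aqp4 (-0.93). Of 5 tested oligodendrocyte lineage markers 2 were lower, Olig2 (-1.08) and Cnp (-0.81), while Sox10, Mog, Mag and Cspg4 were not bright enough to be tested. Of 6 tested neuron markers 5 were called: Syt1 was higher (2.40), and Map2 (-0.86), Gad1 (-2.61), Tubb3 (-2.37) and Syp (-1.29) were lower, with a list median of -1.08. The neuron markers Rbfox3, Snap25, Dcx, Nefl and Slc17a7 were not bright enough to be tested. Of 7 tested ependymal and choroid plexus markers 2 were lower, Dnah9 (-1.63) and Foxj1 (-2.03). Of 6 tested pericyte and smooth muscle markers 2 were lower, Rgs5 (-2.11) and Notch3 (-0.95), while Cspg4, Myh11, Des, Kcnj8 and Abcc9 were not bright enough to be tested. Flt1 (2.07) was the 1 called of 2 endothelial markers, and none of 9 microglia and macrophage markers was called. Their part in the strain differences of Dlk1, Grb10, Peg3 and Plagl1 was not tested, and fewer cells of a type cannot be told apart from less RNA per cell in bulk cultures.

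Other imprinted genes gave the setting for these values. Of 52 listed, 31 had a tested probe set, and 5 were higher and 5 lower in 129, with a median log2 difference of 0.02. That is 32.3% of the list, beside 25.2% of all tested probe sets. By p-value the leading ones were Ndn (0.57), a growth suppressor of neurons, Rasgrf1 (2.15), a Ras exchange factor, and Mcts2 (0.50), all higher in 129, and Sgce (-0.72), a sarcoglycan, Trappc9 (-0.80) and Ppp1r9a (-1.03), all lower. None of the 31 passed between Cdca7l and vector or between the sexes.

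Lists of genes that work with the members are given by the same strain comparison, in which 25.2% of all tested probe sets were called. The share called was 27.8% for IGF signalling, 16.7% for the cyclins and kinases, 50.0% for the Notch list (4 of 8) and 43.8% for imprint maintenance (7 of 16); nothing particular to a list is read from these shares. Of 18 tested IGF signalling genes, 2 were higher in 129, the binding protein Igfbp6 (3.15) and the ligand Igf1 (2.02), and 3 were lower, the insulin receptor Insr (-1.05), the PI3K subunit Pik3r1 (-0.53) and Igfbp5 (-0.43). Of 8 Notch receptors, ligands and targets, the pathway that Dlk1 is thought to modulate, 4 were lower in 129 and none higher: Notch3 (-0.95), Hey1 (-0.56), Notch2 (-0.45) and Jag1 (-0.43). Among 18 cyclins, kinases and inhibitors that work with Cdkn1c, Ccne1 (0.78) and Ccnd3 (0.34) were higher and Cdkn1b (-0.68) was lower. Of 16 genes that maintain imprints or DNA methylation 6 were higher in 129 and 1 lower. They included Zfp57 (1.84), a zinc finger protein that protects imprints in the embryo, its partner Trim28 (0.38), the chromatin remodeller Hells (1.61), the Polycomb subunit Eed (0.48) and Mbd3 (0.49), against the demethylating enzyme Tet1 (-1.29). In the Cdca7l comparison the only one of these lists with a call was the last, and its call was Cdca7l itself (4.61).

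Between males and females, 0 of 17 member probe sets passed, where 0.321% of all tested probe sets did. Dlk1 was nearest, 2.37 log2 units higher in males with an adjusted p of 0.113 with limma. It averaged 7.58 ± 2.40 in males (SD, n = 20) and 5.25 ± 2.65 in females (SD, n = 17). Without the array 129 female Cdca7l 1(3), whose Dlk1 was 7.91, its adjusted p was 0.0355, so a single culture decided on which side of the threshold it fell. The 17 female arrays include the one that did not match its label, with Dlk1 at 7.22. Without that array the Dlk1 difference was 2.46 (adjusted p = 0.093 with limma), and without both doubted arrays 2.51 (adjusted p = 0.0739 with limma). With Igf2 (adjusted p = 0.203 with limma, and no size given because all 17 female arrays were below background) and Meg3 1436713_s_at (0.77, adjusted p = 0.225 with limma), it made 3 of 17 members at an unadjusted p under 0.05, beside 18.1% of all tested probe sets. Meg3 1436713_s_at was above background on 6 of 17 female and 13 of 20 male arrays, so its 0.77 is not read as a size. In the same comparison every cell type list had a median above 0, beside a median of 0.01 over all tested probe sets. Above 0 were 10 of 11 astrocyte markers (median 0.43), 5 of 5 oligodendrocyte lineage markers (0.65) and 6 of 7 ependymal and choroid plexus markers (0.86). So were 8 of 13 fibroblast and meningeal (0.85), 6 of 6 pericyte and smooth muscle (0.11) and 5 of 6 neuron markers (0.31). For endothelial markers it was 2 of 2 (0.57) and for microglia and macrophage markers 5 of 9 (0.27). None passed the threshold, and the part of these cell types was not tested.

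The sex difference was also compared between strains. No member passed, and no probe set of the array did (0%), while 10 of 17 member probe sets had an unadjusted p under 0.05, beside 15.3% of all tested probe sets. Of these 10, 6 were Meg3 probe sets, which read the same RNA. Meg3 1452905_at came first, with a male minus female difference 1.52 larger in 129 than in B6 (adjusted p = 0.172 with limma). Without both doubted arrays it was 1.54 (adjusted p = 0.196 with limma). Grb10 (1.82) ran the same way and Mest (-1.18) the other way, with adjusted p of 0.306 and 0.241 from limma. For Igf2 (adjusted p = 0.248 with limma) no size is given, since it was above background only in 129 males. Without 129 female Cdca7l 1(3), 2 Meg3 probe sets passed. Fibroblast and meningeal markers had a median of 2.38 in the same comparison, 11 of 13 above 0. Other lists moved with it as well: ependymal and choroid plexus markers had a median of 2.47 (6 of 7 above 0), pericyte and smooth muscle markers 1.15 (6 of 6), microglia and macrophage markers 0.96 (9 of 9) and astrocyte markers 0.43 (9 of 11). Their part in it was not tested.

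The cultures that share a clone label often read alike with the 2 plasmids. Over the 15 labels with both plasmids, the Cdca7l and vector values were correlated at 5 of 17 member probe sets after adjustment (permutation within strain and sex, a test chosen after seeing the data). The share of all tested probe sets passing this test was not computed, so nothing particular to the members is read from the count. For Grb10 the Pearson r was 0.90 (Spearman rho 0.91, adjusted permutation p = 0.00863), with 0.89 without the 2 labels farthest from the median, 0.80 in 129 and 0.93 in B6. For H19 it was 0.87 (rho 0.91, adjusted permutation p = 0.00863), with 0.87 without 2 labels, 0.87 in 129 and 0.88 in B6. For Dlk1 it was 0.72 (rho 0.71, adjusted permutation p = 0.00863), with 0.77 without 2 labels, 0.62 in 129 and 0.98 in B6. For Mest it was 0.77 (rho 0.82, adjusted permutation p = 0.0261), with 0.68 without 2 labels, 0.87 in 129 and 0.33 in B6. For Peg3 1417355_at it was 0.58 (rho 0.64, adjusted permutation p = 0.00782), with 0.73 without 2 labels, 0.57 in 129 and 0.73 in B6. Without label 129 female 1(3) these 5 kept an adjusted permutation p under 0.05 (0.0293 for Grb10, 0.0017 for H19, 0.032 for Dlk1, 0.0426 for Mest and 0.0409 for Peg3 1417355_at), and Peg3 1433924_at also passed (r 0.87, adjusted permutation p = 0.0248).

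Over all tested probe sets the median r between the plasmids was 0.44, with strain and sex means removed as for the members. Among all tested probe sets, the r of Grb10 stood at the 97.7 percentile, H19 at 96.4, Mest at 89, Dlk1 at 83.5 and Peg3 1417355_at at 66.3. The median absolute difference between the plasmids of a label was 0.30 for Grb10 and 0.77 for H19, while the labels themselves spanned 8.21 to 13.39 for Grb10 and 2.07 to 10.37 for H19. Meg3 1439380_x_at (r 0.48, adjusted permutation p = 0.312) and Plagl1 1426208_x_at (r 0.26, adjusted permutation p = 0.463) did not pass. For Igf2, whose values form separate clusters, no coefficient is given.

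**Figure D4:**
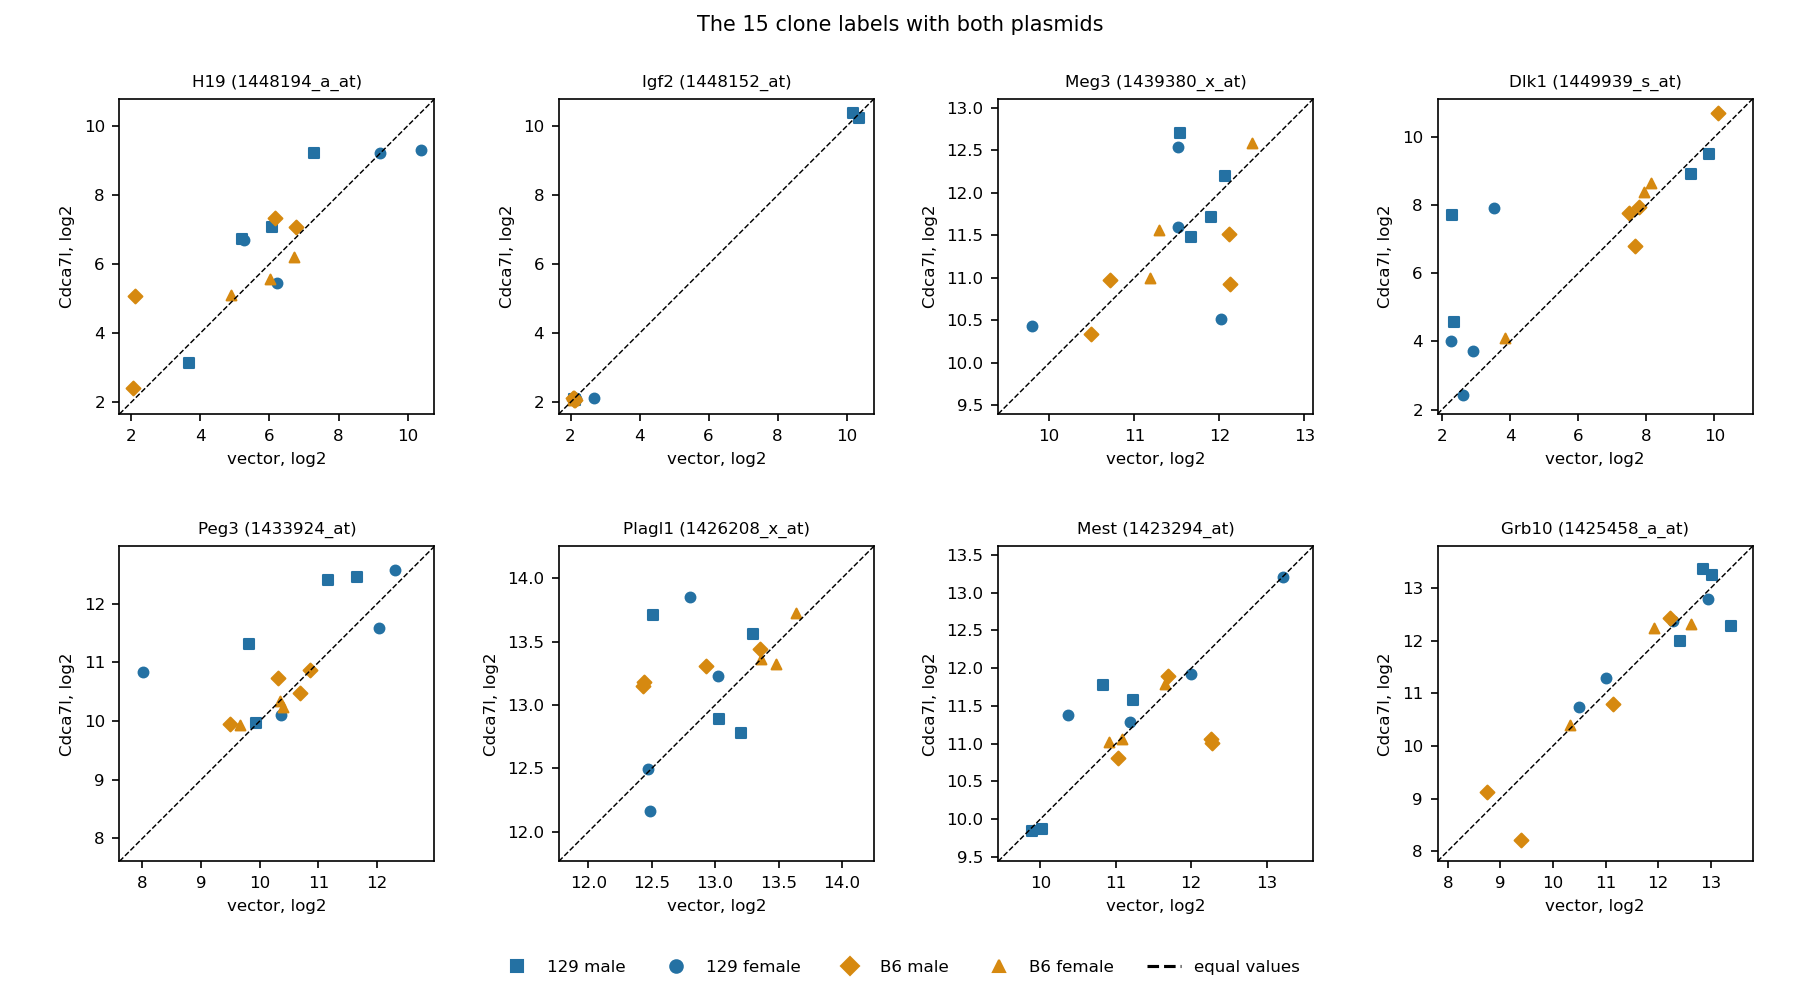
Cdca7l value (vertical axis, log2) against vector value (horizontal axis, log2) of the 15 clone labels with both plasmids, for 8 members, with a dashed line where the values are equal. Grb10 labels stand within 1.18 of the line and H19 labels within 2.95, and 2 labels from 129 stand far above it for Dlk1, at 7.72 and 7.91 with Cdca7l.

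Of the 28 pairs of members, 2 were correlated across the 22 clone labels after group means were removed. H19 and Grb10 varied together (Pearson r 0.73, adjusted permutation p = 0.0112; Spearman rho 0.61, adjusted permutation p = 0.0368). Without the 2 labels whose H19 lay farthest from its median, B6 male 5.6(1) and 129 male 3(2), r was 0.74. It was 0.93 within B6 (n = 12 labels, permutation p = 0.00028) and 0.47 within 129 (n = 10 labels, permutation p = 0.209). The doubted array B6 female vector 5.1(1), with H19 at 2.71 and Grb10 at 8.15, stayed in the 0.74 and the 0.93. In B6 males, label 5.6(1) had the lowest H19 with both plasmids, 2.41 and 2.07, and Grb10 at 9.12 and 8.75. Label 2(2) had H19 at 5.07 with Cdca7l and 2.12 with the vector, and Grb10 at 8.21 and 9.39. Without both doubted arrays r was 0.66 and its adjusted permutation p 0.0507.

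Dlk1 and Mest varied in opposite directions (Pearson r -0.61, adjusted permutation p = 0.0391; Spearman rho -0.66, adjusted permutation p = 0.0368). Without the 2 labels whose Dlk1 lay farthest from its median r was -0.56. It was -0.73 within 129 (n = 10 labels, permutation p = 0.0211) and -0.49 within B6 (n = 12 labels, permutation p = 0.0967). The 129 male cultures 3(1) and 5(1), with Igf2 above 10, carried high Dlk1 (9.49 and 8.92 with Cdca7l, 9.85 and 9.30 with the vector) and low Mest (9.86 and 9.84 with Cdca7l, 10.03 and 9.90 with the vector). Without both doubted arrays r was -0.61 with an adjusted permutation p of 0.0882. Of the neighbours within a domain, Dlk1 and Meg3 did not pass. Peg3 and Zim1 could not be paired, because Zim1 was not bright enough to be tested. H19 and Igf2 are not read, since Igf2 was above background on 5 arrays only.

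**Figure D5:**
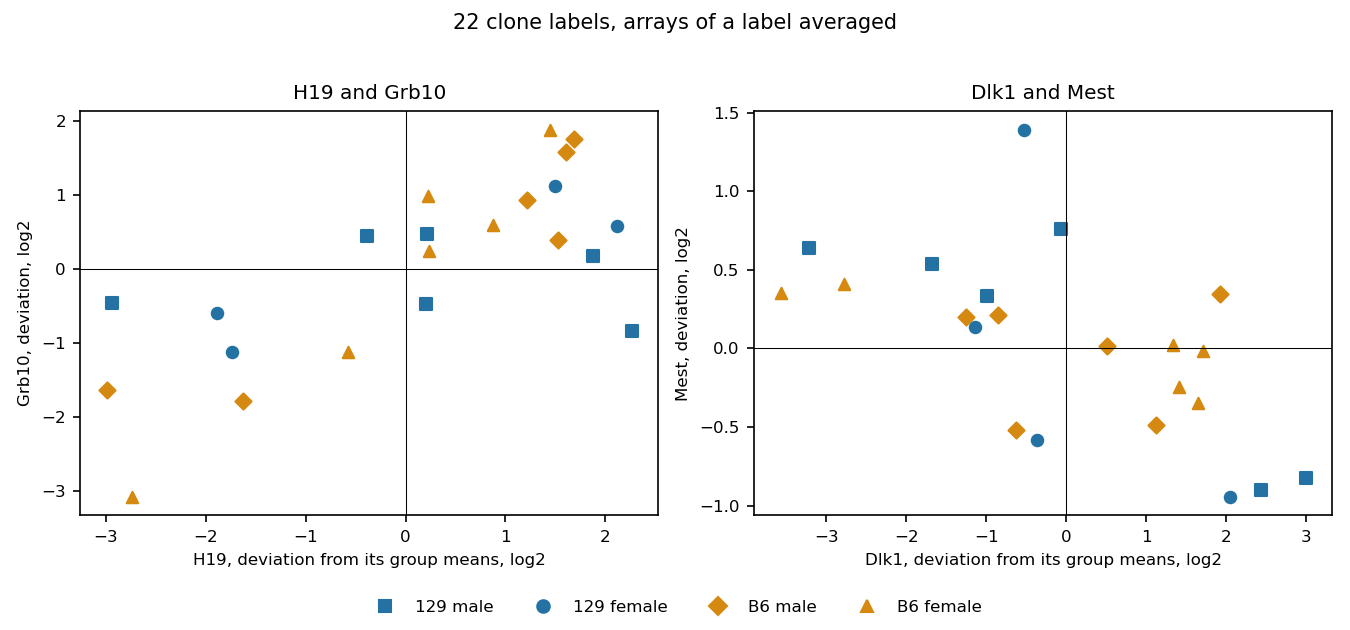
Deviations from the group means (log2, arrays of a label averaged) of Grb10 against H19 and of Mest against Dlk1 for 22 clone labels, with symbols for strain and sex. The H19 and Grb10 deviations rise together (r 0.73) and the Dlk1 and Mest deviations run in opposite directions (r -0.61).

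The members were also set against the mean scores of the fixed gene lists over the same 22 labels, 72 pairs in all, in a test chosen after seeing the data. After adjustment 11 pairs passed, of which 1 involved Igf2 and is not given. Plagl1 ran with astrocyte markers (r 0.71, rho 0.75, adjusted permutation p = 0.0142; r 0.70 without 2 labels, 0.93 within 129 and 0.48 within B6) and with ependymal and choroid plexus markers (r 0.78, rho 0.77, adjusted permutation p = 0.0118; r 0.70 without 2 labels, 0.68 within 129 and 0.85 within B6). Dlk1 ran with oligodendrocyte lineage markers (r 0.70, rho 0.67, adjusted permutation p = 0.0193; r 0.68 without 2 labels, 0.67 within 129 and 0.73 within B6). Grb10 ran with pericyte and smooth muscle markers (r 0.68, rho 0.68, adjusted permutation p = 0.0345; r 0.67 without 2 labels, 0.54 within 129 and 0.72 within B6). Grb10 also ran with fibroblast and meningeal markers (r 0.39, rho 0.57, adjusted permutation p = 0.0118; r 0.46 without 2 labels, 0.60 within 129 and 0.66 within B6) and with the cyclin and kinase list (r 0.50, rho 0.65, adjusted permutation p = 0.0173; r 0.54 without 2 labels, 0.81 within 129 and 0.71 within B6), and against neuron markers (r -0.47, rho -0.52, adjusted permutation p = 0.033; r -0.47 without 2 labels, -0.82 within 129 and -0.50 within B6). Meg3 ran with neuron markers (r 0.60, rho 0.57, adjusted permutation p = 0.033, with r 0.42 without 2 labels, 0.61 within 129 and 0.76 within B6). It ran against endothelial markers (r -0.47, rho -0.50, adjusted permutation p = 0.0118, with r -0.43 without 2 labels, -0.70 within 129 and -0.16 within B6). The endothelial score holds only Flt1 and Kdr. Its mean level was 2.33 to 2.61 in B6, below background, so its B6 coefficient is not read. All scores use only the markers bright enough to be tested. Dlk1 ran with ependymal and choroid plexus markers too (r 0.55, rho 0.50, adjusted permutation p = 0.0461; r 0.51 without 2 labels, 0.46 within 129 and 0.62 within B6).

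Without both doubted arrays, 7 of the 11 pairs passed. Those that did not were the pair with Igf2, Dlk1 with ependymal and choroid plexus markers (r 0.55, adjusted permutation p = 0.0748), Grb10 with neuron markers (r -0.50, adjusted permutation p = 0.0685) and Grb10 with pericyte and smooth muscle markers (r 0.57, adjusted permutation p = 0.105).

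By array, the transcripts most like each member after removal of group means (Pearson r, 37 arrays, the highest among all tested probe sets and so only a description) were of different kinds. For H19 they were the mitotic genes Bub1b, a spindle checkpoint kinase (0.83), Cdc20, an activator of the anaphase-promoting complex (0.82), and Tpx2, a spindle assembly factor (0.82). For Dlk1 they were the co-chaperone Dnaja1 (0.82), the secreted protein Olfml3 (0.78) and the focal adhesion protein Pxn (0.77). For Plagl1 they were Lgi2 (0.90), the ectonucleotidase Entpd2 (0.90) and Pdzd2 (0.90), and for Grb10 Zfp280b (0.87), the phosphatase Ptp4a2 (0.87) and Pigk (0.86), part of the enzyme that attaches lipid anchors to proteins. For Mest they were Sh3bp4 (0.86), Lratd2 (0.82) and Rangrf (0.80), for Meg3 Cdk5rap3 (0.84), Cotl1 (0.83) and Glt8d1 (0.83), and for Peg3 Fam102b (0.82), the kinase Dyrk2 (0.81) and Mdfic (0.80).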

How the data were processed

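Per the submitters' processing notes, the deposited log2 values came from GCRMA and Partek 6.5, whose roles are not given; the authors' table holds 45101 probe sets for 37 arrays, from 1.17 to 15.26. Gene names came from the platform annotation, in which 34958 probe sets have 1 symbol, 932 several and 9211 none. For this report, 64 control probe sets were left out and 25579 probe sets above the table's median (3.19) on at least 4 arrays were tested. The H19 probe set was kept although it is also annotated to Mir675. limma 3.58.1 in R 4.3.3 was fitted on 8 group means over 37 arrays (29 residual degrees of freedom), with Benjamini-Hochberg adjustment over all tested probe sets at 0.05. Permutation tests used 100000 resamples in numpy 2.4.6, with clone labels permuted within strain and sex. Where 2 labels were left out of a correlation, they were chosen by distance from the median of its first variable alone. That variable was the first-named member, or the Cdca7l value for the agreement of the plasmids. The scripts were tested on simulated data. p-values measure the spread between these cultures, which the design text calls independent isolates, although arrays of 1 clone label may share an isolate. All 10 members were named, with, per member, the 3 genes of the highest correlation, and at most 6 list genes past the threshold per list, by smallest p. The members, lists and tests were chosen with earlier results of these data known. The deviations of same-numbered arrays of the 2 plasmids had correlations of 0.38 to 0.77 over the 7 B6 pairs and -0.09 to 0.72 over the 8 pairs of 129. Arrays of different labels were not compared in this way, so these values do not settle whether the labels pair the samples. The number of arrays limits the precision.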

Additional observations from a re-analysis of the deposited data

Results flagged for a closer look

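Dixon's test for a single outlying value was applied to the 17 tested member probe sets in the 8 groups, 136 sets of values in all, and marked 10; chance alone marks about 1 in 20. Igf2 was marked for 129 female vector 2(3) at 2.68, with 2.12 to 2.14 in the others, and for B6 male vector 3(5) at 2.14, with 2.08 to 2.09 in the others; all of these are below background. Meg3 was marked high for B6 female vector 6(3), at 11.32 for 1452905_at and 9.70 for 1426758_s_at, with at most 9.89 and 8.50 in the others. Meg3 1436713_s_at was high in 129 female Cdca7l 1(3), at 4.26, and in B6 male Cdca7l 3(5), at 3.59, with at most 2.98 and 3.09 in the others. Meg3 1429256_at was high in 129 female Cdca7l 1(3), at 3.57, and low in B6 female vector 3(3), at 2.05 where the others lay between 2.85 and 2.94. Plagl1 1438588_at was low in B6 female vector 2.1(1), at 7.13, where the others were at 9.81 or more, and Plagl1 1450533_a_at was high in B6 female vector 3(3), at 8.15, where the others were at 7.17 or less.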

How the results depend on the processing

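Counts of member probe sets past the threshold stayed at 0 for Cdca7l against vector, averaged and in each strain and sex, and for its interactions with sex and strain, under every setting run, the fixed and random replicate block included (0 in each). The strain count of 4 became 1 with no filter on low values, 7 with array weights, 1 with the random replicate block, 2 of 8 with 1 probe set per gene and 2 after dropping B6 female vector 5.1(1); with 1 array left out at a time it ran from 1 to 6. Counts of 1 or 2 came from leaving out 129 female Cdca7l 4(1) or 2(1), B6 female Cdca7l 1(4), 129 female vector 4(1) or 2(1), B6 female vector 4(5) or 5.1(1), 129 male Cdca7l 3(1) or 5(1), B6 male Cdca7l 5.6(1), or 129 male vector 3(1) or 5(1). The sex count of 0 became 4 with array weights and 1 without 129 female Cdca7l 1(3), and the sex by strain count of 0 became 8 with array weights and 2 without that array. Array weights, whose estimation stopped before convergence, called 12132 of 25579 probe sets by strain. The 2 correlated member pairs became 1 without the 2 labels farthest from the median, 1 within 129, 1 within B6, 1 after quantile normalization, 0 without both doubted arrays and 5 with deviations per array. The causes were not tested. The 25 named member differences were those with an unadjusted p under 0.05 in the main limma fit, and the averaged Dlk1 difference. Of 342 values over them, none changed direction, 21 lost a call and 31 gained one. Since they were chosen from the same arrays for their distance from 0, nothing is read from the unchanged directions. The clone-label correlation was 0.41. Igf2, below background in 32 cultures, is limited to bounds there.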
